A study of Homo sapiens with 9 samples.

Results

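Cells that were in S or G2 phase when they were collected were compared between day 28 of osimertinib and untreated day 0. Of the 9 RNA-seq libraries of the series, 5 belong to this comparison. They were chosen by their labels: 2 libraries of S and G2 cells at day 28 of treatment against 3 libraries of S and G2 cells at day 0, with phase as a term in the model. Each gene was represented by the transcript row with the highest mean over the 9 libraries, and 12385 of 20435 genes had enough reads to be tested.

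PC9 cells come from a human lung adenocarcinoma and grow on signals of a mutated EGFR, the receptor of epidermal growth factor, which the drug osimertinib blocks. All cells carried FUCCI4, a set of fluorescent cell cycle reporters. Untreated cells (day 0) were compared with cells kept in 500 nM osimertinib for 28 days. The series holds no untreated library of day 28. The drug, the 28 days of culture and the survival of only some cells therefore cannot be told apart. Cells were fixed with glyoxal, permeabilised with saponin, and sorted on DAPI for DNA content and then on the mKO2-CDT1 and Clover-GMNN reporters. Day 0 gave S cells of clones 1 and 7 and G2 cells of clone 1. Day 28 gave S cells and G2 cells of clone 1, 1 library of each. The other 4 libraries hold G1 cells of both clones at both days and serve here as a reference. The labels do not say whether libraries came from separate cultures, so the spread between them may be technical. In the main model that spread comes from the difference of clones 7 and 1 in day 0 S. It also comes from the difference of the day change between S and G2. The p-values measure only this spread, shared in part over genes. Reads from the reporter fragments may add to CDT1 and GMNN.

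A cell in S phase copies its DNA, and a cell in G2 prepares for mitosis. Genes of DNA replication are driven mainly by E2F factors as cells enter S phase. Genes of mitosis are driven later by the MuvB complex with MYBL2 and FOXM1, which binds a promoter element called the cell cycle homology region. EGFR signals through RAS and ERK to the genes that carry cells through G1, and cancer cells that survive an EGFR inhibitor for weeks mostly rest in G1, with few cells in S or G2.

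The unit is the normalised read count: the deposited log2 value put back on the linear scale, that is, whole reads multiplied by a scale factor of the library, over a gene's coding span with its introns. Fold changes are differences of log2(normalised count + 1), given as log2 fold change ± SE. The libraries held 30.3 to 47.3 M (mega) reads at day 0 and 40.9 and 43.1 M at day 28. The G1 libraries held 8.83 to 108.7 M. The mean of these totals is larger than the mean depth that the labels state, and the reason is not given in the sources used here. Mitochondrial transcripts made up 6.34% to 9.14% of the reads in the 3 day 0 libraries, 21.6% in day 28 S and 15.8% in day 28 G2. Genes with a span over 300 kb took 0.726% to 0.880% at day 0, 2.06% in day 28 S and 2.72% in day 28 G2. Reads over 413 olfactory receptor genes were taken as a gauge of background. Whether these cells express any of them was not tested. Their density was 0.00108 to 0.00353 per kb per M reads at day 0, 0.0120 in day 28 S and 0.0259 in day 28 G2. These gauges rest on 15 to 70 reads at day 0 and on 220 and 500 at day 28, and their part in the results was tested only by subtraction, given with the long genes. In RNA from sorted pools, fewer cells that express a gene and less of its RNA per cell cannot be told apart.

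Markers were checked against the labelled cell type. All 20 epithelial identity genes had reads in every one of the 5 libraries except CEACAM6, which had 0 reads in day 28 G2. Their summed normalised count was 2226310, 1726208 and 2088311 in day 0 S clone 1, S clone 7 and G2, against 984226 in day 28 S and 1008275 in day 28 G2. Keratins make up most of that sum. In day 0 S clone 1, KRT7, KRT8, KRT18 and KRT19 had 338369, 154284, 356690 and 159680 of 1103855 reads. Of the 19 members tested, 4 rose and 5 fell. Of 12 leukocyte markers 2 were abundant enough to test, and the list's summed normalised count was 1075.9 to 1461.9 at day 0 against 1076.7 and 1404.6 at day 28. The members behind that sum differed. PTPRC, the leukocyte phosphatase CD45, had 1, 0 and 11 reads at day 0 and 42 and 95 at day 28, CD4 1, 0 and 0 against 12 and 57, and the integrin ITGAM 164, 163 and 160 against 309 and 499. CD68 had 359, 214 and 208 against 55 and 12, and MS4A1 and TYROBP had 0 in all 5 libraries. Of 10 fibroblast and endothelial markers 3 could be tested, with sums of 2190.3 to 2537.2 at day 0 and 1919.0 (S) and 3127.3 (G2) at day 28. The members differed here too, and of the 3 tested 2 fell and 0 rose. PDGFRA had 1, 0 and 1 reads at day 0 against 34 and 58, and VWF 18, 11 and 22 against 172 and 240. The endothelial genes PECAM1 and CDH5 went the other way. PECAM1 had 288, 249 and 102 reads against 38 and 72, and CDH5 227, 80 and 172 against 42 and 71. LUM had 0 reads in 4 of the 5 libraries and 2 reads in day 28 G2. The part of such cells in the results was not tested.

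Treated S and G2 cells differed from untreated ones in a large share of the transcriptome. Of the 12385 genes tested, 5484 (44.3%) passed an adjusted p of 0.05 (limma, Benjamini-Hochberg). Of these, 2877 (23.2%) rose and 2607 (21.0%) fell. Of the genes that passed, 2278 rose and 1572 fell by at least the factor of 2. Both day 28 libraries lay above all 3 day 0 libraries for 4054 genes (32.7%), and below all 3 for 3701 genes (29.9%). With median-of-ratios scaling the median of all genes moved from 0.04 to -0.13, and 2364 genes rose while 3343 fell. Leaving out either G2 library leaves the other to the phase term, so both settings give the day change of S alone. Leaving out day 28 S gives the day change of G2 alone, 1 library against 1. The count leans on single libraries, since each phase had 1 library at day 28. It was 3233 without day 0 G2, 3222 without day 28 G2 and 2497 without day 28 S. The gene lists are described by their counts and medians, to be read against 23.2% rising, 21.0% falling and the median of 0.04 over all tested genes. Counts under another setting have their own totals over all genes. With quantile scaling 2480 rose and 2735 fell, and with the trend with span removed 1977 rose and 2735 fell. Counts without a G2 library or day 28 S are to be read against the smaller totals above.

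Spindle and cytokinesis genes followed the sorted phases, which checks the labels in part. Replication lists parted day 0 S from day 0 G1 little. The mean log2 level of 24 licensing genes was 12.65 and 12.34 in S against 12.66 and 12.39 in G1. For 34 fork genes it was 12.98 and 12.86 against 12.63 and 12.82. The 4 tested replication-dependent histones were lower in S (7.99 and 8.06) than in G1 (9.18 and 9.46). At day 28 licensing genes stood at 12.42 in S against 11.38 and 10.64 in G1. The mean log2 level of 30 spindle and cytokinesis genes was 13.16 and 13.22 in day 0 S, 14.30 in day 0 G2, 13.04 in day 28 S and 14.28 in day 28 G2. In G1 it was 10.93 and 11.86 at day 0 and 9.90 and 8.93 at day 28. Both phases at day 28 thus lay close to the day 0 libraries of their own phase, and above every G1 library. Of these 30 genes, 2 rose and 3 fell, and the median change was -0.04 (0.24 with quantile scaling). With median-of-ratios scaling 8 of them fell, and with quantile scaling 6 rose.

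TOP2A, the topoisomerase that untangles sister chromatids, shows the same at 1 gene. Day 0 S held 45323 (clone 1) and 65178 (clone 7) normalised reads and day 0 G2 178423, against 55910 in day 28 S and 189746 in day 28 G2. Levels were higher in G2 than in S on both days, and the days overlapped, with a log2 fold change of 0.06 ± 0.23 (adjusted p = 0.847; ENSG00000131747, chromosome 17, 40389519 to 40417791, GRCh38). That value was 0.82 with quantile scaling (adjusted p = 0.0076). In G1, TOP2A had 4026 and 22828 normalised reads at day 0 and 2604 and 1805 at day 28. MKI67, the proliferation antigen Ki-67 that coats mitotic chromosomes, had 16351, 19602 and 32377 in day 0 S clone 1, S clone 7 and G2. Its 13749 in day 28 S and 27698 in day 28 G2 gave -0.31 ± 0.21 (adjusted p = 0.233). FOXM1, the forkhead factor of late cycle genes, was at -0.12 ± 0.23 (adjusted p = 0.704).

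The mitotic regulators behaved less evenly. Of 26 mitotic kinases and cyclins, 10 fell and 2 rose (median -0.47). CCNB1 encodes cyclin B1, the partner of CDK1 at mitotic entry. It had 43421, 55131 and 157317 normalised reads in day 0 S clone 1, S clone 7 and G2, against 18993 in day 28 S and 68519 in day 28 G2. Within each phase day 28 lay below day 0, with a log2 fold change of -1.29 ± 0.21 (adjusted p = 0.000908). AURKA, the spindle pole kinase Aurora A, fell from 7031, 8327 and 25320 to 2624 (S) and 11654 (G2), a change of -1.36 ± 0.22 (adjusted p = 0.000881). PLK1, the polo kinase of mitosis, had 9419, 15045 and 36084 at day 0 and 3327 (S) and 23500 (G2) at day 28, a change of -1.32 ± 0.30 (adjusted p = 0.00517). The PLK1 call was lost without day 28 S (-0.62, adjusted p = 0.266), and that of CCNB1 was just lost (-1.20, adjusted p = 0.0516).

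CCNA2, the cyclin of S and G2, changed by -1.06 ± 0.22 (adjusted p = 0.00285), also lost without day 28 S (-1.08, adjusted p = 0.0548). CDK1, the mitotic kinase itself, changed by -0.66 ± 0.21 (adjusted p = 0.0261). It stood at -0.86 without day 28 S (adjusted p = 0.0985), without either G2 library at -0.50, and with quantile scaling at -0.21 (adjusted p = 0.378). MYBL2, the partner of MuvB, was at -0.51 ± 0.21 (adjusted p = 0.0732) and at -0.60 when clone was blocked. TPX2, which activates Aurora A on the spindle, fell by 1.43 ± 0.21 on the log2 scale (adjusted p = 0.000546), and the kinetochore checkpoint gene MAD2L1 by 1.61 ± 0.25 (adjusted p = 0.000657). TROAP, a spindle-associated protein, rose by 1.23 ± 0.21 (adjusted p = 0.00108). Of 38 centromere and kinetochore genes 3 rose and 6 fell (median -0.10), and of 19 genes of the anaphase-promoting complex 5 fell and 0 rose (median -0.34, but 0.06 with quantile scaling). When day 28 S was left out, 3 mitotic kinases and cyclins, 3 centromere and kinetochore genes and 0 genes of the anaphase-promoting complex fell.

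**Figure D1:**
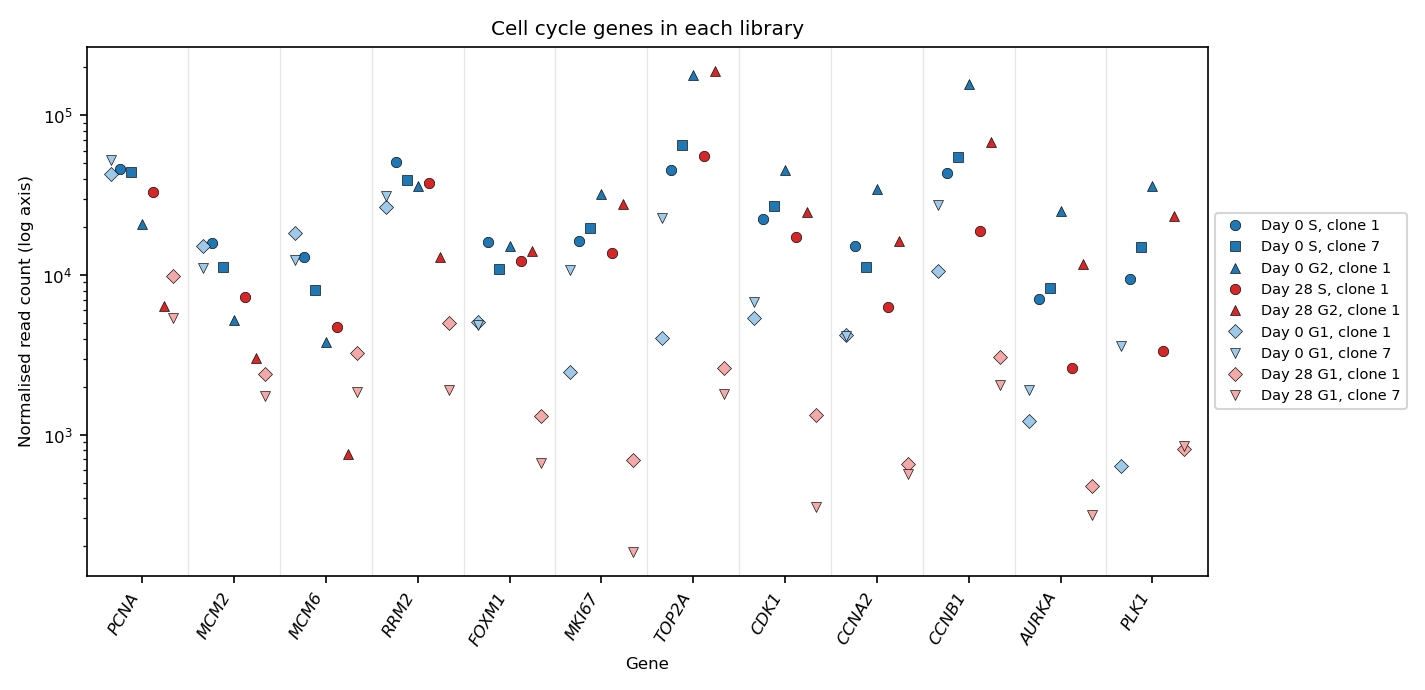
Normalised read counts (log axis) of 12 cell cycle genes (horizontal axis) in each of the 9 libraries, 1 point per library with no error bar. Blue marks day 0 and red day 28, with paler points for G1. TOP2A in day 28 S and G2 sits beside its day 0 values, while MCM6, AURKA and CCNB1 lie lower at day 28 within each phase.

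Genes that supply nucleotides for DNA replication were lower. Of 23 genes that make nucleotides 17 fell and 1 rose (median -0.88). RRM1, the large subunit of ribonucleotide reductase, had 16044, 13513 and 11853 normalised reads in day 0 S clone 1, S clone 7 and G2, against 5987 in day 28 S and 3379 in day 28 G2. Neither day 28 library overlapped day 0, and the change was -1.52 ± 0.23 (adjusted p = 0.000556). The purine synthesis enzymes PAICS (-2.11 ± 0.28, adjusted p = 0.000331) and ATIC (-1.42 ± 0.21, adjusted p = 0.000543) also fell, as did DCTPP1, which clears modified dCTP (-1.75 ± 0.26, adjusted p = 0.00053). RRM2, the small subunit of ribonucleotide reductase, changed by -0.78 ± 0.28 (adjusted p = 0.0398). Its call was lost without either G2 library (-0.25, adjusted p = 0.565 and 0.568) and with quantile scaling (-0.27, adjusted p = 0.454). Of the 23 genes, 10 fell without day 0 G2 or without day 28 G2.

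Of 24 replication licensing genes 7 fell and 2 rose (median -0.35), and of 34 replication fork genes 11 fell and 4 rose (median -0.14). MCM6 is a subunit of the MCM helicase that opens DNA at origins. It had 12898 and 8075 normalised reads in day 0 S (clones 1 and 7), 3802 in day 0 G2, 4720 in day 28 S and 754 in day 28 G2. The day 28 value was below day 0 in each phase, and the change was -1.64 ± 0.32 (adjusted p = 0.00219; ENSG00000076003, chromosome 2, 135840835 to 135876365). MCM2, another subunit, changed by -0.84 ± 0.23 (adjusted p = 0.0134). PCNA, the sliding clamp of the polymerases, had 46490, 44062 and 20758 at day 0 and 33333 (S) and 6354 (G2) at day 28, a change of -0.98 ± 0.27 (adjusted p = 0.0134). Without a G2 library PCNA stood at -0.44 (adjusted p = 0.276 and 0.281), and with quantile scaling at -0.56 (adjusted p = 0.125). MCM2 lost its call without any 1 of 4 libraries (all except day 0 S clone 7), with values of -0.71 to -0.87. POLE, the leading-strand polymerase, rose by 1.25 ± 0.23 (adjusted p = 0.00149; 1.14 and 0.0516 without day 28 S), while POLE3, a small subunit of the same enzyme, fell by 1.60 ± 0.30 (adjusted p = 0.00167). Without either G2 library, 2 licensing and 5 fork genes fell, and without day 28 S 0 licensing genes and 1 fork gene rose.

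The E2F promoter element and the cell cycle homology region occur at different rates in the promoters of these lists. In RefSeq promoters (GRCh38.p14, 250 bases before to 50 after the start, 9862 of the tested genes matched), the homology region was searched as TTTGAA or TTCGAA on both strands, and the E2F element as TTTNNCGC on both strands. The homology region lay in 22 of 26 spindle promoters (84.6%), 12 of 19 of mitotic kinases and cyclins (63.2%) and 17 of 31 of centromere and kinetochore genes (54.8%). It lay in 2 of 21 licensing (9.52%) and 1 of 28 fork promoters (3.57%), against 16.6% of all 27305 promoters and 11.1% of those of tested genes. The E2F element lay in 12 of 21 licensing (57.1%) and 13 of 28 fork promoters (46.4%), in 4 of 26 spindle (15.4%), 6 of 31 centromere and kinetochore (19.4%) and 2 of 19 kinase and cyclin promoters (10.5%), in 6.90% of all promoters and in 10.9% of those of tested genes. Matches are letters only, and binding was not measured. Shown are MCM6, a licensing gene whose day 28 value lay below day 0 in each phase, TOP2A, a mitotic gene whose days overlapped, and PLK1, a mitotic gene that fell. Each is given in the 5′ to 3′ direction of its gene, with matches in capitals. The MCM6 promoter (chr2:135876394-135876693, minus strand) has 4 E2F matches that overlap in pairs, the first at -152, and 1 homology region match at -246. The TOP2A promoter (chr17:40417847-40418146, minus strand) has matches at -194 and -151, and the PLK1 promoter (chr16:23678639-23678938, plus strand) has 1 at -29, positions being those of the first base of the match from the start of transcription.
MCM6: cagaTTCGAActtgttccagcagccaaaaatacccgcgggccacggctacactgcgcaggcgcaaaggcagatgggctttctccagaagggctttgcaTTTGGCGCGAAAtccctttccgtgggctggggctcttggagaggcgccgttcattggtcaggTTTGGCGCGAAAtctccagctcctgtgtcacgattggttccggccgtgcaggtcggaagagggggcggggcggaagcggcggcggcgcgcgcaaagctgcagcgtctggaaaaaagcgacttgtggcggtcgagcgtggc
TOP2A: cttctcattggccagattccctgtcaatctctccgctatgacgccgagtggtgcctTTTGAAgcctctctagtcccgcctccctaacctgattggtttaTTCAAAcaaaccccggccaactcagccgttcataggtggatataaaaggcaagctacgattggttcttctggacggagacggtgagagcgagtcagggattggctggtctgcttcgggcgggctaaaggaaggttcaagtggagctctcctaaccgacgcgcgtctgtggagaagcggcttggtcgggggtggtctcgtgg
PLK1: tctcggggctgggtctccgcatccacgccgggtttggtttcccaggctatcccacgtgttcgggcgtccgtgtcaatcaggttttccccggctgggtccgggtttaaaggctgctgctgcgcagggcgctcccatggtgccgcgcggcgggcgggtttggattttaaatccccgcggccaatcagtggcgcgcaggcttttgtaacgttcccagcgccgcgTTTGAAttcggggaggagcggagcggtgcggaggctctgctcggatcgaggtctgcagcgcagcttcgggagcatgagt

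Of 23 G1/S cyclins, CDKs and E2F factors 6 rose and 3 fell (median 0.06, but -0.11 with median-of-ratios scaling), and the cyclins E and E2F1 did not pass. CCNE2, cyclin E2, had 466 and 294 normalised reads in day 0 S (clones 1 and 7) and 2007 in day 28 S. In G2 it had 46.1 at day 0 and 2.07, a single read, at day 28. The mean change over both phases was -0.30 ± 1.16 (adjusted p = 0.854). In S alone it was 2.44 ± 0.82 (adjusted p = 0.095) and in G2 alone -3.94 ± 0.95 (adjusted p = 0.0625), and the difference of -6.38 ± 1.25 did not pass over all genes (adjusted p = 0.974). E2F1 had 2329 and 1570 in day 0 S against 3170 in day 28 S, and 543 in day 0 G2 against 304 in day 28 G2, with a joint change of 0.06 ± 0.40 (adjusted p = 0.916). CCND1, cyclin D1, was at -0.50 ± 0.28 (adjusted p = 0.164) and at -0.64 when clone was blocked. CCNE1, cyclin E1, was at -0.64 ± 0.34 (adjusted p = 0.151). RBL2, the p130 pocket protein of resting cells, rose by 1.33 ± 0.24 (adjusted p = 0.00155). Of the 23 genes 2 rose without day 28 S, 3 with quantile scaling and 3 with the span trend removed.

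Of 8 CDK inhibitors 1 rose and 1 fell, and 0 passed without day 28 S or without either G2 library. CDKN1A (p21) had 510, 185 and 110 normalised reads at day 0 in S clone 1, S clone 7 and G2, and 325 (S) and 221 (G2) at day 28, with overlap and a change of 0.47 ± 0.61 (adjusted p = 0.552). CDKN1B (p27) was at -0.12 ± 0.23 (adjusted p = 0.695). The reporter genes did not pass either. CDT1, the licensing factor, was at -0.02 ± 0.33 (adjusted p = 0.96). GMNN, its inhibitor geminin, was at -0.73 ± 0.37 (adjusted p = 0.132) and at -1.05 when clone was blocked. That fit leaves 1 library for each day and phase. Its spread is the difference of the day change between S and G2, shared in part over genes. GMNN was 28666 in day 0 G2 against 8151 in day 28 G2, and without either G2 library its change was 0.08.

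In G1 the same lists had larger median differences between the days. Spindle genes had a median difference of -1.06 (clone 1) and -2.59 (clone 7) in G1, against -0.15 and -0.20 in S (from day 0 clones 1 and 7) and -0.05 in G2. Mitotic kinases and cyclins stood at -1.28 and -2.87 in G1 against -0.39, -0.30 and -0.36. Licensing genes stood at -1.40 and -2.04 in G1 against -0.32, 0.06 and -0.54. The test of the difference itself, the day effect in S and G2 minus that in G1, called 0 of 12385 genes (0%, limma), with 1381 at an unadjusted p under 0.05 and 0 with voom weights. Without day 28 G1 clone 1 it called 56 genes, 49 of them higher in S and G2. MKI67 had the difference 3.52 ± 0.93 (adjusted p = 0.256), RRM2 2.44 ± 0.60 (adjusted p = 0.256) and TOP2A 2.21 ± 0.86 (adjusted p = 0.386).

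**Figure D2:**
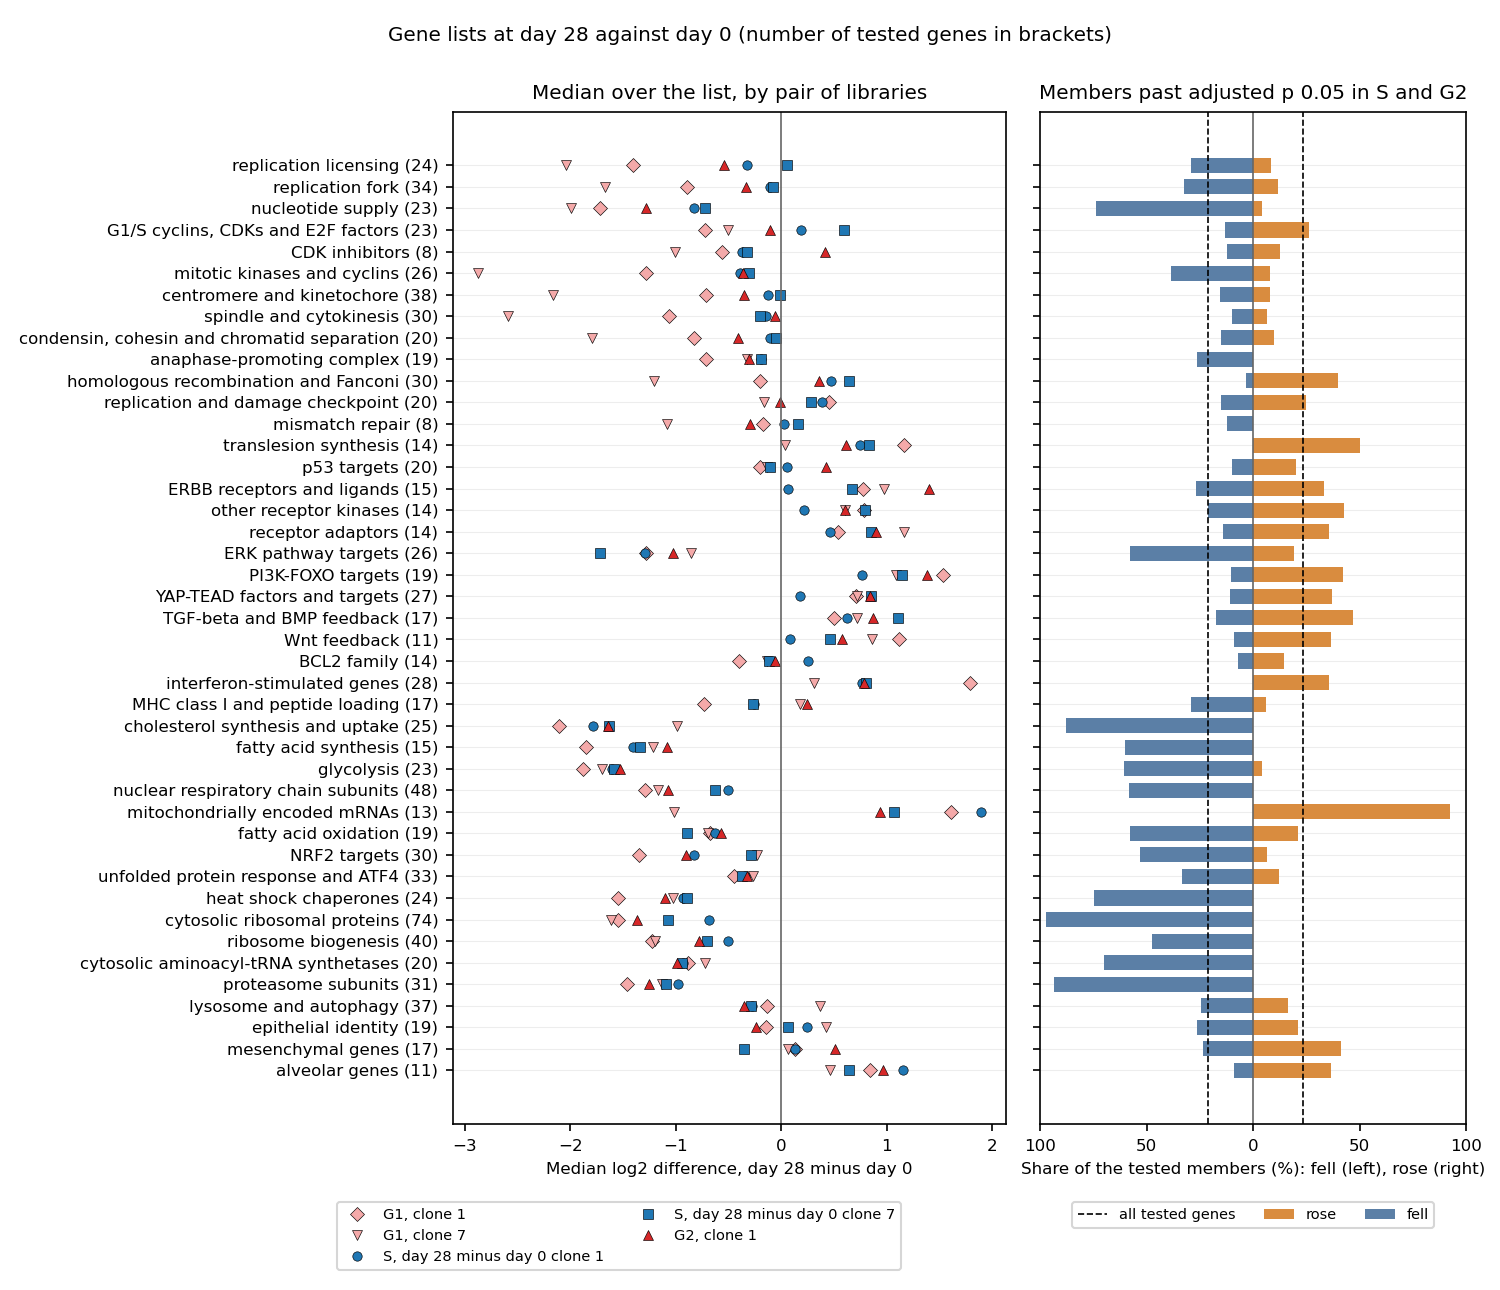
Left, the median log2 difference between day 28 and day 0 over the tested members of each list, for the S, G2 and G1 pairs of libraries. Right, the share of members (%) that rose or fell in S and G2, with dashed lines for all tested genes (23.2% rose, 21.0% fell). In the cell cycle lists the G1 points lie left of the S and G2 points, and nucleotide supply also lies left of 0 in S (-0.83 and -0.72) and G2 (-1.28), while cholesterol synthesis, glycolysis, proteasome and ribosomal lists lie left in every pair shown.

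Osimertinib acts on EGFR, and the receptor's own transcript was more abundant in treated S and G2 cells. EGFR had 5435, 6180 and 7498 normalised reads in day 0 S clone 1, S clone 7 and G2, against 20415 in day 28 S and 19844 in day 28 G2. The groups did not overlap, and the change was 1.64 ± 0.22, or 3.12-fold (adjusted p = 0.000317; ENSG00000146648, chromosome 7, 55019278 to 55205617). Its partners ERBB2 (-0.01 ± 0.24, adjusted p = 0.976) and ERBB3 (0.22 ± 0.28, adjusted p = 0.538) did not pass. Of 15 ERBB receptors and ligands 5 rose and 4 fell. With each library's trend with span removed 2 rose, and with the olfactory read density subtracted 3 rose (1 of 10 tested when it was subtracted before the filter). Among the ligands, HBEGF had 333, 2693 and 238 normalised reads at day 0 against 88.4 (S) and 49.6 (G2), a change of -2.91 ± 0.80 (adjusted p = 0.0132; -2.24 and 0.186 without day 28 S). AREG, amphiregulin, had 145, 451 and 169 at day 0, 61.9 in day 28 S and no read in day 28 G2, a change of -3.69 ± 1.09 that depends on the 0.9 reads entered for none (adjusted p = 0.0186). Without either G2 library AREG stood at -2.03 (adjusted p = 0.228 and 0.0988). NRG1 and ERBB4 rose by 3.66 ± 0.42 (adjusted p = 0.000163) and 4.68 ± 0.60 (adjusted p = 0.000271), with read densities of 1.1 and 1.3 times (NRG1) and 0.75 and 1.0 times (ERBB4) that of olfactory receptor genes in day 28 S and G2.

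Of 14 other receptor kinases 6 rose and 3 fell. AXL, a kinase linked to resistance against EGFR inhibitors, had 5688, 5648 and 5994 normalised reads at day 0 and 935 (S) and 1665 (G2) at day 28, a change of -2.28 ± 0.26 (adjusted p = 0.000165). EPHA4, an ephrin receptor, had 321, 542 and 569 against 4196 and 6370, a change of 3.39 ± 0.33 (adjusted p = 7.39e-05). INSR, the insulin receptor, rose by 2.92 ± 0.47 (adjusted p = 0.000803). MET, the receptor of hepatocyte growth factor, was at 0.94 ± 0.32 (adjusted p = 0.034), and this call was lost with median-of-ratios scaling (0.78, adjusted p = 0.0665), with the replicate block (0.82, adjusted p = 0.0572) and without day 28 S (0.70, adjusted p = 0.326) or a G2 library (1.13). Of the 14, 2 rose and 1 fell without day 28 S.

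Docking proteins that carry receptor signals moved in both directions. GAB2 had 64.5, 105 and 197 normalised reads in day 0 S clone 1, S clone 7 and G2, against 7952 in day 28 S and 10782 in day 28 G2, a change of 6.23 ± 0.40 (adjusted p = 1.1e-05; ENSG00000033327, chromosome 11, 78219272 to 78417720). Its relative GAB1 had 377, 189 and 443 against 2879 and 3096, a change of 3.16 ± 0.40 (adjusted p = 0.000257). SOS2, an activator of RAS, rose by 2.09 ± 0.35 (adjusted p = 0.000962). SHC1, the adaptor that links receptors to RAS, had 10818, 11947 and 7334 at day 0 and 2514 and 2030 at day 28, a change of -2.04 ± 0.23 (adjusted p = 0.000134). Of the 14 adaptors 5 rose and 2 fell (3 and 1 without day 28 S).

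Targets of the ERK pathway were lower. Of 26 tested 15 fell and 5 rose (median -1.17). DUSP6, a phosphatase that ERK induces and that switches ERK off, had 988, 3245 and 715 normalised reads at day 0 and 73.0 (S) and 114 (G2) at day 28. All day 28 values lay below all day 0 values, with a change of -3.76 ± 0.60 (adjusted p = 0.000819; ENSG00000139318, chromosome 12, 89349254 to 89352039). PHLDA1 had 5613, 7288 and 3218 against 325 and 506 (-3.60 ± 0.37, adjusted p = 8.55e-05). ETV5, an ETS factor, had 962, 1175 and 1499 against 170 and 314 (-2.47 ± 0.38, adjusted p = 0.000623). By pair of libraries the median of the list was -1.29 and -1.72 in S and -1.03 in G2. Without day 28 S, 7 of the 26 fell and 3 rose.

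Genes that FOXO factors induce when PI3K signalling is low were higher: 8 of 19 rose and 2 fell (median 1.07). FOXO1 itself had 58.5, 105 and 56.4 normalised reads against 394 and 570, a change of 2.74 ± 0.67 (adjusted p = 0.00739; 2.31 and 0.0679 without day 28 G2). BCL6, a transcriptional repressor, had 3152, 1934 and 1645 against 13597 and 9297 (2.48 ± 0.27, adjusted p = 0.00012). BCL2L11, the death gene BIM, had 264, 136 and 402 against 1181 and 1099 (2.12 ± 0.48, adjusted p = 0.00511), with 1.45 and an adjusted p of 0.167 without day 28 S. BCL2, the survival gene that BIM opposes, rose by 2.80 ± 0.45 (adjusted p = 0.000786). Of 14 genes of the BCL2 family 2 rose and 1 fell (1 and 0 without day 28 S). Leaving out day 28 S left 5 FOXO-linked genes that rose.

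**Figure D3:**
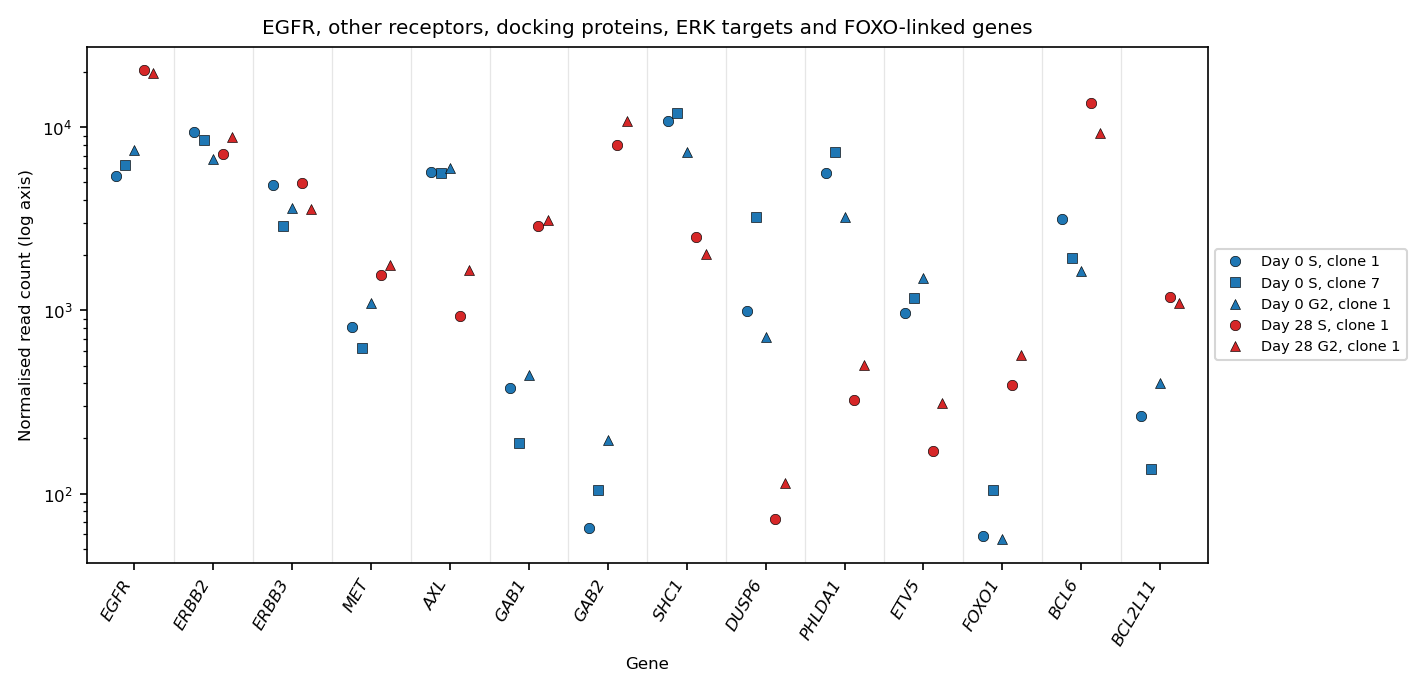
Normalised read counts (log axis) of EGFR, other receptors, docking proteins, ERK targets and FOXO-linked genes (horizontal axis) in the 5 libraries of S and G2 cells, 1 point per library with no error bar. EGFR and GAB2 at day 28 (red) lie above all day 0 points (blue), AXL, SHC1, DUSP6, PHLDA1 and ETV5 lie below them, and ERBB2 and ERBB3 overlap.

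The largest rises outside these lists were in LRP2 and XAGE2. LRP2, the endocytic receptor megalin, had 32.3 normalised reads in day 0 S clone 1, 3.50 (1 read) in S clone 7 and 43.5 in G2, against 3931 and 4689 at day 28 (S and G2), a change of 7.64 ± 0.87 (adjusted p = 0.000152; ENSG00000081479, chromosome 2, 169128663 to 169362399). XAGE2, a cancer-testis antigen of the X chromosome, had 64.5, 10.5 (3 reads) and 131 against 5490 and 5804, a change of 6.71 ± 0.75 (adjusted p = 0.000141; ENSG00000155622, chromosome X, 52370015 to 52375591). TNNT2, cardiac troponin T, had 48.4, 94.4 and 69.2 against 2726 and 2491 (5.24 ± 0.52, adjusted p = 7.79e-05). DCLK2, a doublecortin-like kinase, had 82.7, 73.4 and 74.3 against 3568 and 3189 (5.46 ± 0.45, adjusted p = 3.12e-05). TENM2, a teneurin of cell adhesion, had 428, 31.5 and 638 against 14444 and 16230 (5.96 ± 0.85, adjusted p = 0.000461). In these 5 genes, as in GAB2, both day 28 libraries were close to each other and far above all day 0 libraries.

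TGM2, which encodes tissue transglutaminase, a protein cross-linker, fell most. It had 33897, 33801 and 21557 normalised reads in day 0 S clone 1, S clone 7 and G2, against 564 in day 28 S and 149 in day 28 G2, a change of -6.45 ± 0.29 (adjusted p = 1.47e-06; ENSG00000198959, chromosome 20, 38130219 to 38165198). For AGR2, a protein-folding enzyme of mucin-making cells, the values were 2029, 11957 and 2157 against 35.4 and 116 (-5.85 ± 0.74, adjusted p = 0.000251; ENSG00000106541, chromosome 7, 16792908 to 16801796). Counts of VIM, which encodes vimentin, were 2660, 5008 and 4030 against 26.5 and 578 (-5.23 ± 0.72, adjusted p = 0.000397; ENSG00000026025, chromosome 10, 17229423 to 17237271). For VIM the 2 day 28 libraries themselves differed widely, though both were below day 0. LGALS1, galectin-1, had 12133, 22281 and 21713 against 787 and 1847 (-4.03 ± 0.30, adjusted p = 1.84e-05). IL1RL1, the receptor of interleukin-33, had 311, 3588 and 523 against 31.0 and 4.13, the last being 2 reads (-5.74 ± 0.96, adjusted p = 0.00101). S100A9, a calcium-binding alarmin, fell by 3.99 ± 0.56 (adjusted p = 0.000432), and so did ANPEP, aminopeptidase N (-3.94 ± 0.48, adjusted p = 0.000211). DUSP4, another ERK-induced phosphatase, fell by 4.09 ± 0.29 (adjusted p = 1.8e-05), as did FAM83A, a scaffold linked to EGFR signalling (-4.07 ± 0.28, adjusted p = 1.8e-05), and PLAT, tissue plasminogen activator (-4.21 ± 0.39, adjusted p = 5.63e-05). MAG had 2543, 769 and 1166 at day 0, 332 in day 28 S and no read in day 28 G2 (-4.90 ± 1.14, adjusted p = 0.00566), and lost its call without day 0 G2 (-2.07, adjusted p = 0.0951).

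**Figure D4:**
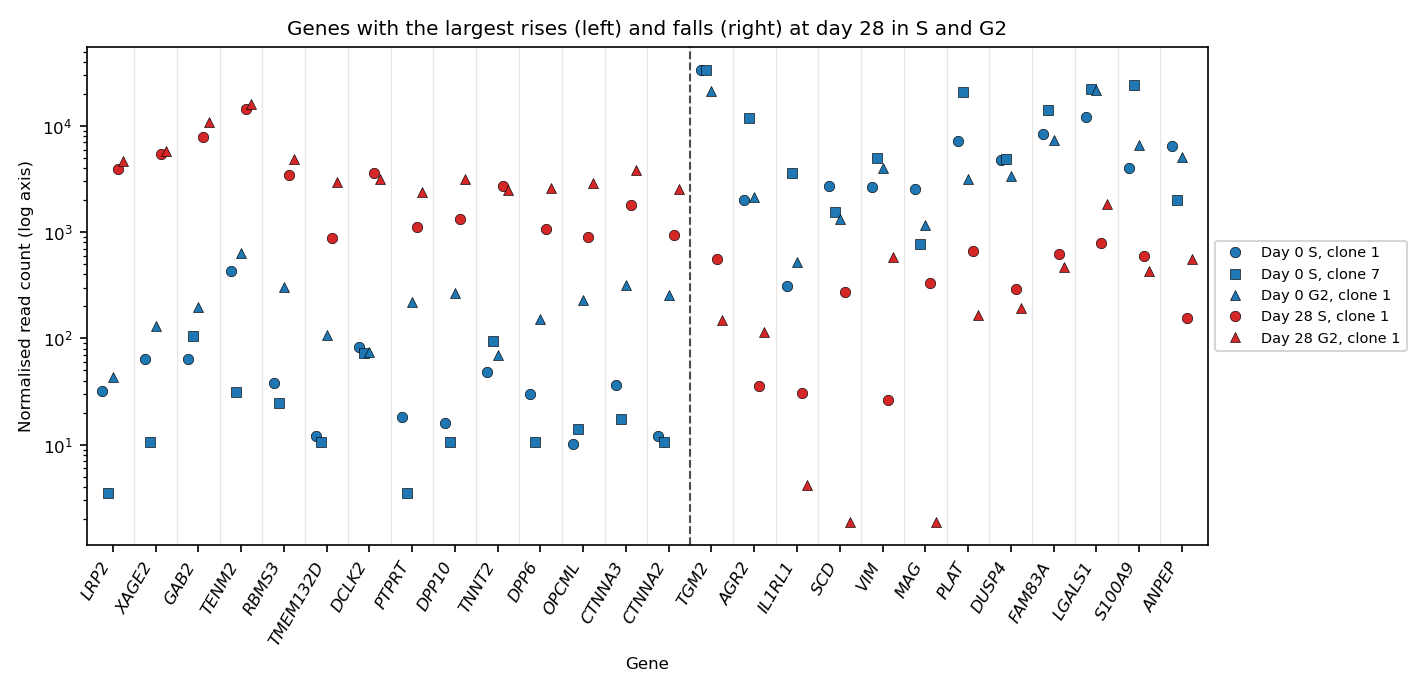
Normalised read counts (log axis) of the 14 genes with the largest rises and 12 of the 14 with the largest falls (horizontal axis, split by the dashed line) in the 5 libraries of S and G2 cells, 1 point per library with no error bar. For TGM2 the day 28 points (red) are 564 and 149 against 21557 to 33897 at day 0 (blue), and a gene without reads is drawn at the value of 0.9 reads.

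Most genes of lipid synthesis fell. Of 25 genes of cholesterol synthesis and uptake 22 fell and 0 rose (median -1.62). MVK, mevalonate kinase, had 5262, 6484 and 4916 normalised reads in day 0 S clone 1, S clone 7 and G2, against 1092 in day 28 S and 595 in day 28 G2 (-2.69 ± 0.27, adjusted p = 8.33e-05). ACAT2, the first thiolase of the pathway, had 13830, 13650 and 18134 against 2958 and 2532 (-2.48 ± 0.23, adjusted p = 4.95e-05). Of 15 fatty acid synthesis genes 9 fell and 0 rose (median -1.18). FASN, fatty acid synthase, had 29170, 26562 and 15829 against 6484 and 5854 (-1.82 ± 0.22, adjusted p = 0.00023). SCD, the desaturase that makes oleate, had 2737, 1539 and 1342 against 274 in day 28 S and no read in day 28 G2 (-5.46 ± 1.01, adjusted p = 0.00163; ENSG00000099194, chromosome 10, 100347505 to 100360933), a value that depends on the 0.9 reads entered for none.

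Of 23 glycolysis genes 14 fell and 1 rose (median -1.64). LDHA, lactate dehydrogenase, had 151092, 136435 and 184571 normalised reads against 32968 and 44010 (-2.10 ± 0.21, adjusted p = 7.74e-05). SLC2A1, the glucose transporter GLUT1, had 21405, 25268 and 15593 against 3781 and 2506 (-2.63 ± 0.21, adjusted p = 2.48e-05), while SLC2A3, GLUT3, had 3824, 1937 and 2031 against 16398 and 9814 (2.45 ± 0.30, adjusted p = 0.000207). Of 19 fatty acid oxidation genes 11 fell and 4 rose. The trifunctional enzyme HADHA fell by 1.60 ± 0.20 (adjusted p = 0.000238), but the gatekeeper CPT1A, carnitine palmitoyltransferase of the liver type, had 8447, 6334 and 9448 against 22725 and 22914 (1.48 ± 0.22, adjusted p = 0.000599). CPT1B, the muscle type, rose by 1.96 ± 0.22 (adjusted p = 0.000147). Without day 28 S, 5 oxidation genes fell and 2 rose.

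Nuclear and mitochondrial genes of the respiratory chain parted. Of 48 nuclear subunits 28 fell and 0 rose (median -0.77), among them ATP5F1A (-1.90 ± 0.20, adjusted p = 0.000101) and ATP5F1B (-1.69 ± 0.21, adjusted p = 0.00022) of the ATP synthase. Of 13 mitochondrially encoded mRNAs 12 rose and 0 fell (median 1.27). MT-ND5, a subunit of complex I, had 96536, 110544 and 109357 against 667084 and 382024 (2.31 ± 0.26, adjusted p = 0.000141). MT-ND6, the one encoded on the other strand, had 1375, 1088 and 1496 against 12993 and 16004 (3.41 ± 0.24, adjusted p = 1.8e-05). The mitochondrial count rests on single libraries: 2 rose without day 0 G2, 2 without day 28 S and 3 without day 28 G2. In G1 the median difference of these mRNAs was 1.61 in clone 1 and -1.02 in clone 7, the clone that day 28 S and G2 lack. Without day 0 G2 or day 28 G2, 12 nuclear subunits fell, and 18 with quantile scaling.

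Most genes of ribosomal proteins and proteasome subunits fell. Of 74 cytosolic ribosomal protein genes 72 fell and 0 rose (median -1.12). RPL7 had 70985, 106963 and 134277 normalised reads against 23508 and 27175 (-2.07 ± 0.24, adjusted p = 0.000165). RPL27 had 62220, 69455 and 127955 against 22628 and 23567 (-1.93 ± 0.24, adjusted p = 0.000242). Reads of ribosomal protein genes can be split with their many pseudogenes. This count moved most with the processing: 16 fell and 2 rose with quantile scaling (median -0.33, against -0.07 over all tested genes). In that setting 2735 of all 12385 genes fell, so the ribosomal protein genes fell about as often as all genes. Without either G2 library their median was -0.90, and without day 28 S it was -1.36. Of 40 ribosome biogenesis genes 19 fell and 0 rose (8 without day 0 G2, 9 without day 28 G2 and 7 without day 28 S). NPM1, nucleophosmin, fell by 1.46 ± 0.23 (adjusted p = 0.000843; -1.46 and 0.0697 without day 28 S), and FBL, the methylase fibrillarin, by 1.23 ± 0.21 (adjusted p = 0.00107).

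Of 20 cytosolic aminoacyl-tRNA synthetases 14 fell and 0 rose (median -1.07; 8 fell without day 28 S), with TARS1 (-1.91 ± 0.22, adjusted p = 0.000165) and FARSB (-1.65 ± 0.21, adjusted p = 0.000243) as the steepest. Of 31 proteasome subunits 29 fell and 0 rose (median -1.10; 19 without either G2 library). PSMD2, a subunit of the regulatory particle, had 142845, 182178 and 143368 against 42314 and 39811 (-1.90 ± 0.22, adjusted p = 0.000157), and PSMA2 of the core particle fell by 1.92 ± 0.21 (adjusted p = 0.000141). Of 24 heat shock chaperones 18 fell and 0 rose (median -1.01; 11 without day 0 G2 and 8 without day 28 S). HSPA8, the constitutive HSP70, had 235416, 209558 and 377004 against 44056 and 74088 (-2.34 ± 0.22, adjusted p = 4.95e-05). CCT4 of the chaperonin fell by 1.76 ± 0.21 (adjusted p = 0.000172).

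Stress genes did not move as 1 block. Of 33 unfolded protein and ATF4 genes 11 fell and 4 rose (median -0.26). PDIA6, a disulfide isomerase, had 69099, 71407 and 66074 normalised reads against 19086 and 18582 (-1.86 ± 0.20, adjusted p = 0.000116). NUPR1, a stress-induced chromatin protein, had 30.3, 112 and 61.5 against 988 and 1634 (4.34 ± 0.67, adjusted p = 0.000689). ATF3 rose by 2.56 ± 0.47 (adjusted p = 0.00162; 2.26 and 0.0591 without day 28 S). Of these genes 5 fell and 2 rose without day 28 S, and 7 fell without either G2 library. Of 30 NRF2 targets 16 fell and 2 rose (median -0.80), but 5 fell with quantile scaling, 3 without day 0 G2, 4 without day 28 G2 and 6 without day 28 S. PGD, of the pentose phosphate pathway, fell by 1.69 ± 0.22 (adjusted p = 0.000262) and ABCC2, a drug exporter, by 2.35 ± 0.35 (adjusted p = 0.0006).

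Interferon-stimulated genes were higher: 10 of 28 rose and 0 fell (median 0.82; 6 rose without day 28 S). IFI6 had 288, 105 and 174 normalised reads against 2175 and 1849 (3.53 ± 0.50, adjusted p = 0.000422), IFI44 103, 80.4 and 66.6 against 845 and 626 (3.21 ± 0.57, adjusted p = 0.0014), and ISG15 706, 769 and 584 against 2478 and 2644 (1.93 ± 0.31, adjusted p = 0.000811). IRF9, the DNA-binding part of the ISGF3 complex, rose by 2.02 ± 0.34 (adjusted p = 0.00103). Among the leukocyte markers, reads of PTPRC, CD4 and ITGAM were higher at day 28 and those of CD68 lower, as given with the cell type markers, and their part in this result was not tested.

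Of 27 YAP-TEAD factors and targets 10 rose and 3 fell (median 0.65). TEAD1, the DNA-binding partner of YAP, had 744, 1140 and 1386 against 10623 and 10204 (3.25 ± 0.29, adjusted p = 4.32e-05), and PTPN14, a target that restrains YAP, had 956, 1353 and 1286 against 11547 and 11536 (3.27 ± 0.26, adjusted p = 2.48e-05). Of 17 TGF-beta and BMP feedback genes 8 rose and 3 fell (median 1.01). The BMP inhibitor SMAD6 had 1577, 1175 and 697 against 11530 and 7031 (3.19 ± 0.26, adjusted p = 3.12e-05), while PMEPA1, an inhibitor in the TGF-beta arm, had 15076, 12723 and 12184 against 2591 and 2475 (-2.37 ± 0.22, adjusted p = 4.95e-05). Of 11 Wnt feedback genes 4 rose and 1 fell (3 and 0 without day 28 S). TCF7L1, a repressor of Wnt targets, had 432, 119 and 400 against 3593 and 6786 (4.02 ± 0.49, adjusted p = 0.00021). ZNRF3, which removes Wnt receptors, rose by 2.12 ± 0.32 (adjusted p = 0.000562). Without day 28 S, 6 YAP-TEAD genes and 3 TGF-beta genes rose, and 3 TGF-beta genes rose without either G2 library.

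Identity genes went both ways within each list. The shares of epithelial genes that rose (21.1%) and fell (26.3%) lay near those over all tested genes (23.2% and 21.0%). Of 19 epithelial genes 4 rose and 5 fell (median -0.27, but 0.09 with quantile scaling, where 6 rose and 2 fell), 2 rose and 1 fell without day 28 S, and 2 fell without either G2 library. GRHL2, the grainyhead factor of epithelia, had 4608, 2672 and 3346 normalised reads against 18427 and 13263 (2.22 ± 0.27, adjusted p = 0.000211). The keratin KRT7 changed by -1.43 ± 0.25 (adjusted p = 0.00129; -1.44 and 0.0846 without day 28 S). Of 17 mesenchymal genes 7 rose and 4 fell, VIM among the latter. CALD1, the actin regulator caldesmon, had 2336, 2455 and 3671 against 34450 and 37016 (3.63 ± 0.22, adjusted p = 1.01e-05; ENSG00000122786, chromosome 7, 134867734 to 134968345). TAGLN, transgelin, had 270, 129 and 200 against 1525 and 4354 (3.63 ± 0.48, adjusted p = 0.000335), and COL6A1, a collagen VI chain, had 30067, 55379 and 19290 against 2613 and 2464 (-3.54 ± 0.30, adjusted p = 3.56e-05). Of 11 alveolar genes 4 rose and 1 fell (2 rose without day 28 S). CLIC5 and RTKN2, both known in alveolar type 1 cells, rose by 4.52 ± 0.49 (adjusted p = 0.000121) and 2.67 ± 0.29 (adjusted p = 0.000121). CLIC5 had 129, 63.0 and 131 against 2162 and 2890. In the lists of other cell types CD68, a lysosomal protein of macrophages that other cells also make, fell by 3.35 ± 0.58 (adjusted p = 0.00121).

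Among the DNA repair lists, genes of recombination and of translesion synthesis rose more often than they fell. Of 30 homologous recombination and Fanconi genes 12 rose and 1 fell (median 0.44), and of 14 translesion synthesis genes 7 rose and 0 fell (median 0.80). FANCC, of the Fanconi core complex, had 1472, 1186 and 1791 normalised reads against 6798 and 4666 (1.94 ± 0.29, adjusted p = 0.00061). BRCA2, a recombination mediator, had 1160, 1109 and 1114 against 2777 and 2582 (1.26 ± 0.28, adjusted p = 0.00432; 1.21 and 0.0785 without day 28 S). POLQ, the polymerase of theta-mediated end joining, had 2801, 2934 and 2557 against 8943 and 6763 (1.54 ± 0.23, adjusted p = 0.000562), and REV3L, the catalytic part of polymerase zeta, had 1244, 1465 and 1752 against 5120 and 5133 (1.76 ± 0.26, adjusted p = 0.000543). These lists have long spans, with medians of 39.6 and 37.6 kb against 25.8 kb over all tested genes. With each library's trend with span removed, 3 recombination genes rose and 1 fell, and 4 translesion genes rose. In that setting 1977 of all 12385 genes rose, so recombination genes did not rise more often than all genes. Without day 28 S, 2 of each rose. RAD51B, a recombination gene with a very long span, rose by 2.21 ± 0.30 (adjusted p = 0.00035) but stood at -0.31 (adjusted p = 0.36) with the trend removed. Of 20 replication and damage checkpoint genes 5 rose and 3 fell (25.0% and 15.0%, against 23.2% and 21.0% over all tested genes). Of 8 mismatch repair genes 1 fell and 0 rose, and of 4 APOBEC3 deaminase genes APOBEC3C fell (-1.65 ± 0.25, adjusted p = 0.00066). Of 20 p53 targets 4 rose and 2 fell (1 and 0 without day 28 S, 2 and 1 without either G2 library). GADD45A, a growth arrest gene, had 7898, 11730 and 4037 against 20234 and 14978 (1.42 ± 0.26, adjusted p = 0.00162).

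Long genes rose far more often than others. Of 434 tested genes with a span over 300 kb 349 rose and 7 fell (median 2.05), and the median span was 60.4 kb for genes that rose and 15.9 kb for those that fell. The read densities of some lie at the level of olfactory receptor genes. In all, 229 tested genes had less than 2 times the olfactory density in both day 28 libraries. Of these, 144 were among the 2877 genes that rose, including 122 of the 349 long ones. The rest did not pass as higher. PTPRT, DPP10, DPP6 and CTNNA3, 4 of the 14 largest rises, had 0.92 and 0.94, 0.87 and 0.97, 0.86 and 0.99, and 0.96 and 0.98 times that density in day 28 S and G2. Their changes were 5.42 ± 0.93, 5.26 ± 0.74, 5.08 ± 0.71 and 5.03 ± 0.65, and subtracting the olfactory density times span from every library left these 4, and 24 of the genes that rose in all, with no reads in any of the 5 libraries, so that no change could be computed. OPCML, CTNNA2 and TMEM132D, 3 further genes of the 14, rose by 5.08, 5.00 and 5.57 and lost their calls with that subtraction (2.79, 2.61 and 3.47, adjusted p = 0.266, 0.293 and 0.188), values that depend on the 0.9 reads entered for none. RBMS3, at 2.2 and 1.5 times the density, kept its call. By contrast XAGE2 had 908 and 452 times the olfactory density, TNNT2 177 and 76.1 times, GAB2 37.0 and 23.6 times, DCLK2 18.6 and 7.82 times, LRP2 15.5 and 8.72 times and TENM2 13.6 and 7.21 times. With the density subtracted from all genes 2318 rose and 2604 fell, and with the trend with span removed 1977 rose and 2735 fell.

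**Figure D5:**
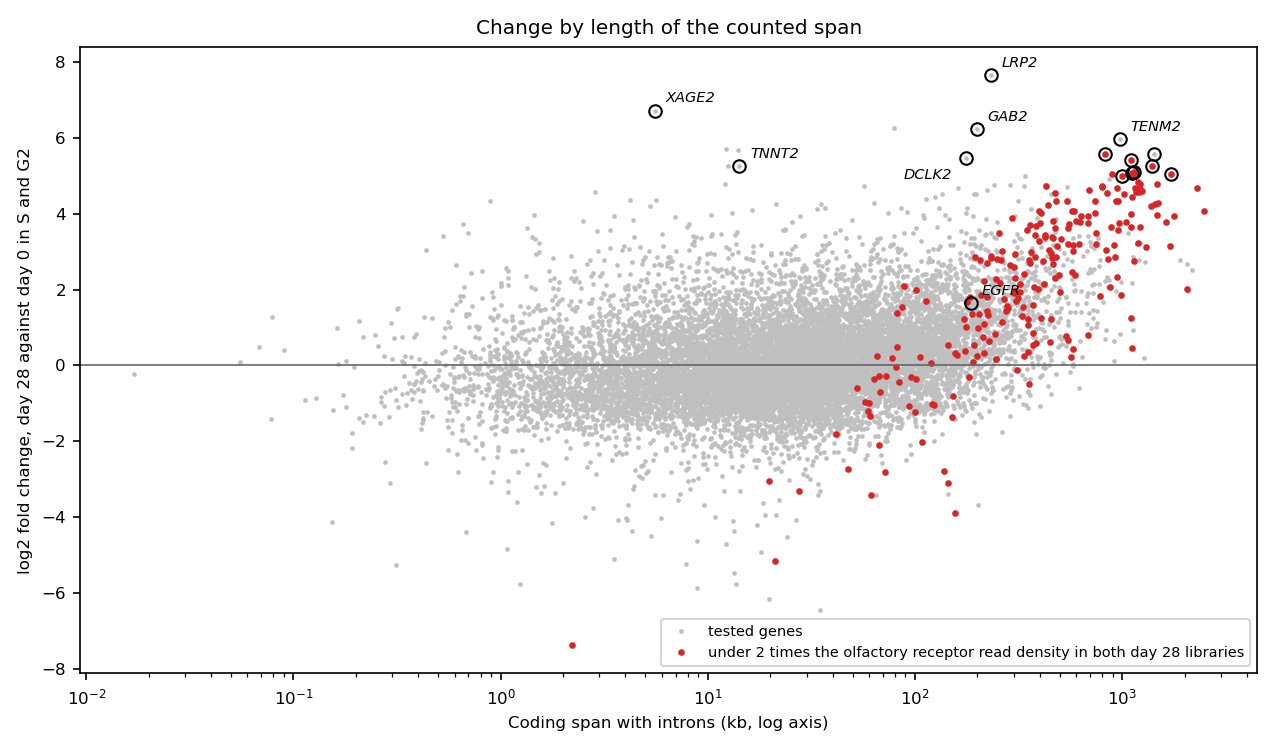
Log2 fold change of day 28 against day 0 in S and G2 (vertical axis) by the coding span with introns in kb (log axis) for the 12385 tested genes, 1 point per gene. Red marks genes under 2 times the olfactory receptor read density in both day 28 libraries, and circles mark the 14 largest rises and EGFR. Of the 229 red genes 144 passed as higher, 122 of them with spans over 300 kb. XAGE2, TNNT2, GAB2 and LRP2 are not among the red genes.

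Taken by phase, S cells gave 901 calls (7.27%), 542 higher (4.38%) and 359 lower (2.90%), and G2 cells 229 calls (1.85%), 95 higher (0.767%) and 134 lower (1.08%). Both come from the fit of 6 group means over 9 libraries, in which a group with a lone library borrows the spread of the rest. Blocking on clone gave 1936 calls in S and 1798 in G2. The S count was 179 without day 0 S clone 1 and 0 without day 0 S clone 7. Of 25 cholesterol genes 9 fell in S and 4 in G2, of 15 fatty acid synthesis genes 5 and 2, and of 23 glycolysis genes 8 and 1. Tested directly, the day effect in G2 minus that in S called 0 of 12385 genes (0%, limma), with 342 at an unadjusted p under 0.05, and 0 under each of its alternatives. Among the licensing and fork genes, the change of MCM6 was -1.11 ± 0.47 in S and -2.33 ± 0.54 in G2, a difference of -1.22 ± 0.72 that did not pass (adjusted p = 1.00), and that of PCNA was -0.44 ± 0.40 in S and -1.71 ± 0.46 in G2.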

How the data were processed

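Poly(A) RNA of sorted PC9 FUCCI4 cells was sequenced, and 5 of 9 libraries enter the main comparison. The authors deposited a log2 value for each of 80037 coding transcripts. The submitters' processing notes say that HISAT2 2.1.0 and the GRCh38 build were used, and DESeq2 is listed with no role. The read counter and the scaling are not given in the sources used here. Checked from the values, each library holds whole reads times 1 factor (100% of values up to 1000 reads lay within 0.05 of a whole number), with 0.9 reads entered for none.

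Values were taken back to a linear scale and tested as log2(value + 1). A gene was kept if its mean deposited log2 reached 7.01, which is what 10 reads are worth in the library of lowest depth. Tests used R 4.3.3, limma 3.58.1 (linear models, empirical Bayes moderation with a trend, threshold 0.05 on Benjamini-Hochberg adjusted p-values), data.table (version 1.17.8), Python 3.11.15, numpy 2.4.6, pandas 2.3.3 and matplotlib 3.10.9. The main model has day and phase as terms and 2 residual degrees of freedom. The code was tested on simulated data. Precision is limited by the 2 treated libraries, and in genes of few reads by counting error.

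Genes were named by a rule: the 14 largest changes each way with a mean of at least 8 reads per M reads (mega) and 1 direction in S and G2, up to 4 members of each of 47 lists with the largest change, and 29 genes whatever their result. The text leaves out some genes that the rule names. Members and lists were chosen with earlier results of these data known. For the difference terms no gene passed, so none was named by them.

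Clone numbers mark libraries of the same clone. Differences of clone 7 from clone 1 in untreated G1 cells correlated at 0.653 with those in untreated S cells and at 0.116 with those in treated G1 cells, and the last 2 sets correlated at 0.296. The clone as a replicate block was therefore run too. In the 5 libraries clone 7 has 1 library, so its estimates equal those of clone 1 alone, though the calls differ (5965 against 5941). Alternatives were other scalings, filters, pseudocounts, span corrections, spans and models, and each library left out. Voom weights for the term against G1, and both subtractions of background density, were chosen after seeing the data.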

Additional observations from a re-analysis of the deposited data

Results flagged for a closer look

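The mean log2 change of the tested homologous recombination and Fanconi genes had opposite signs in the 2 kinds of library pairs. Averaged over the S and G2 pairs of libraries it was 0.585, and averaged over the G1 pairs it was -0.627. Every S and G2 pair lay above 0 and every G1 pair below 0. The G1 pairs were far apart, at -0.0704 in clone 1 and -1.18 in clone 7, the clone that day 28 S and G2 lack. The mean of the lysosome and autophagy genes went the other way, at -0.162 over the S and G2 pairs and 0.327 over the G1 pairs. In G1 that mean was 0.114 in clone 1 and 0.540 in clone 7. Their median did not part in this way: it was -0.136 in G1 clone 1, against -0.275 and -0.284 in S and -0.352 in G2. It was 0.364 in G1 clone 7. The difference between the 2 kinds of pairs was tested for neither list.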

How the results depend on the processing

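The count of 5484 genes for S and G2 together ranged from 2497 (without day 28 S) to 5941 (without day 0 S clone 7) when a library was left out. Over the other alternatives it ran from 3667 (mean of the S and G2 effects over 9 libraries) to 7351 (no filter), and was 3233 without day 0 G2 and 3222 without day 28 G2. In S the count of 901 became 2317 with no filter and ranged from 0 to 179 with a day 0 S library left out. In G2 the count of 229 became 432 with median-of-ratios scaling, 125 with quantile scaling and 761 with no filter. With the clone as a replicate block, S gave 1936, G2 1798 and both together 5965 calls. The term against G1 ranged from 0 to 56 calls with a library left out, and the term of G2 against S gave 0 under all its alternatives. More members fell than rose in 25 of 43 lists, in 26 with the span trend removed, and in 27 with median-of-ratios scaling or the density subtracted. Apart from 29 genes named whatever their result, genes were named for large changes in these same data. How many of the named genes kept their calls therefore does not measure how firm the other calls are. Of the 117 named genes that passed, 103 kept direction and call without day 28 S, 110 without day 0 G2 or without day 28 G2, and 113 with quantile scaling. Of them 14 lost the call without day 28 S, 7 without each G2 library and 4 with quantile scaling.

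Direction changed for RAD51B, which passed, with the span trend removed (-0.31). PTPRT, DPP10, DPP6 and CTNNA3 have no value with the background density subtracted, since no reads were left. It also changed for 11 genes that did not pass. With quantile scaling CCNE2 stood at 0.74, CDKN1A at -0.22, CDKN1B at 9.74e-06, CDT1 at 0.25, E2F1 at -0.30, ERBB2 at 0.17, FOXM1 at 0.20 and MKI67 at 0.10. With median-of-ratios scaling E2F1 stood at -0.11 and TOP2A at -0.10, and with the span trend removed CDKN1B at 0.10, CDT1 at 0.17 and ERBB2 at 0.0124. With the replicate block E2F1 stood at -0.20 and ERBB2 at 0.0040, and with the mean over 9 libraries E2F1 at -0.0539 and ERBB2 at 0.0412. CCNE2 stood at 0.43 with a pseudocount of 10 and at 1.57 with voom weights. With a library left out CCNE2 ranged from -3.94 to 2.44, CDKN1B from -0.33 to 0.16, CDT1 from -0.37 to 0.30, E2F1 from -0.84 to 0.73, ERBB2 from -0.32 to 0.40, ERBB3 from -0.0159 to 0.40, FOXM1 from -0.26 to 0.0268, GMNN from -1.81 to 0.0838 and TOP2A from -0.0663 to 0.20. The cause of these shifts was not tested, except that leaving out a library removes samples, and leaving out one of day 28 leaves 1 treated library of S or G2. Values without either G2 library are those of S alone, and values without day 28 S are those of G2 alone. Depth limits genes with few reads, since 1 read was worth 2.02 to 3.50 normalised reads in the 5 libraries.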
